A study of Mus musculus with 6 samples.

Results

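The enzymes that write, copy and remove methylation of cytosine in DNA were followed at the RNA level in germ and somatic cells of the fetal mouse ovary and in somatic cells made from embryonic stem (ES) cells. The 8 genes were Dnmt1, Uhrf1, Dnmt3a, Dnmt3b, Dnmt3l, Tet1, Tet2 and Tet3, taken by symbol from the 31053 genes listed. Each of the 8 was found. The Induced D6 library came from ES cells of a 129svj and C57BL/6J cross, grown as aggregates for 6 days. CHIR, BMP4 and EGF were given for the first 2 days. SHH, EGF, PD0325901 and retinoic acid together with BMP4 followed for 2 days, and FGF9 with BMP4 for the last 2. Gonads of XX fetuses of the ICR strain gave 1 library at each of E10.5, E11.5, E12.5, E13.5 and E14.5 (embryonic days). The Induced library differs from the gonad libraries in strain as well as in culture, which cannot be told apart. Every group was 1 library, so no difference between conditions could be tested. All intervals are 95% counting intervals of unique molecular identifiers (UMIs) and do not cover the spread between animals or cultures.

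DNA methylation is copied after replication by DNMT1, which UHRF1 brings to hemimethylated CpG sites. DNMT3A and DNMT3B set new methylation, with DNMT3L as a cofactor that has no catalytic activity of its own. TET1, TET2 and TET3 oxidise 5-methylcytosine, which opens routes to its removal. Primordial germ cells of the mouse lose most of their DNA methylation while they migrate and settle in the gonad, and female germ cells then enter meiosis before methylation is set again in the growing oocyte.

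The libraries held 37606947 to 52146419 UMIs over 2766 to 7564 cell barcodes. After filters and the removal of likely doublets, 2660 to 7064 cells were kept per library, with medians of 6184 to 11831 UMIs. Between 17 and 114 barcodes were shared by any 2 libraries, the most by E13.5 and E14.5. Clusters with germ cell markers (germ-cell-like) held 18, 311, 581, 1396 and 1161 cells at the 5 stages in order. The Induced library had none. Clusters with markers of the supporting lineage, the coelomic epithelium or the stroma, here together called gonadal somatic, held 497, 2088, 2211, 2616 and 2823 cells at these stages in order, and 5079 cells in the Induced library. Dazl, which encodes an RNA-binding protein of germ cells, had 472 to 1024 CPM (UMIs of the gene scaled to all UMIs of the class) in germ-cell-like cells of E11.5 to E14.5, against 0.865 to 18.5 CPM in gonadal somatic cells. Nr5a1, a transcription factor of gonadal somatic cells, had 0.489 to 2.08 CPM in these germ-cell-like cells and 37.6 to 50.9 CPM in the gonadal somatic cells. The summed level of all 18 germ cell markers in gonadal somatic cells was 0.985% to 2.14% of that in germ-cell-like cells from E11.5 to E14.5. The E10.5 gonadal somatic class was 1 cluster with markers of coelomic epithelium and supporting lineage and with 0 UMIs of Foxl2, a factor of the ovarian supporting lineage.

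Dnmt1 and Uhrf1 form the maintenance pair, and 1 start site of each has the same short sequence nearby, which is why their sequences are shown. The windows searched were the 250 bases before each RefSeq start site (GRCm38.p6), 15 windows for the 8 genes. The motif was the E2F type, spelled TTTCCCGC, TTTCGCGC, TTTGCCGC or TTTGGCGC on either strand. E2F factors are regulators of genes used in DNA replication. The spelling TTTCGCGC occurred 185 bases before 1 of the 2 Uhrf1 start sites, and on the opposite strand, as GCGCGAAA, 219 bases before 1 of the 3 Dnmt1 start sites. None of the 4 spellings was in the windows of the other 6 genes. Over all 32851 windows, 1.86% held a match. The 30 bases around each match are printed with the matched letters in capitals.
Dnmt1, chr9:20952824-20952853, minus strand: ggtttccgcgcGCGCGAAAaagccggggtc
Uhrf1, chr17:56304117-56304146, plus strand: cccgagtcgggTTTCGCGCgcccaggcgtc
The Dnmt1 match lies in the annotated 5′ untranslated part of the first exon of another Dnmt1 transcript, and the Uhrf1 match lies in no annotated exon of Uhrf1. A match of letters is a description and not a binding site. The Uhrf1 window in full (chr17:56304063-56304312) is shown because it also carries 30 CpG sites, the dinucleotide these enzymes act on, against a median of 6 over all windows.
Uhrf1, window: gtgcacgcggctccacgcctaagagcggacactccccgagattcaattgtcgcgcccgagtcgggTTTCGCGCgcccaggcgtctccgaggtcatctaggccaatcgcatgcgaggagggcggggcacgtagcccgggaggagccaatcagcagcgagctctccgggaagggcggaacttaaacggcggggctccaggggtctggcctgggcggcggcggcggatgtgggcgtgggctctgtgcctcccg
The Dnmt1 window with the match held 26 CpG sites. Among the other genes the windows ranged from 3 to 5 CpG sites at the 3 Dnmt3l start sites to 51 at the Tet2 start site.

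Dnmt1, the maintenance methyltransferase, was higher in germ-cell-like than in gonadal somatic cells at every stage. It had 137, 152, 140 and 80.6 CPM in germ-cell-like cells at E11.5, E12.5, E13.5 and E14.5, against 43.7, 43.2, 29.4 and 27.5 CPM in gonadal somatic cells. The ratios were 3.13 (2.87 to 3.41), 3.51 (3.24 to 3.80), 4.76 (4.38 to 5.18) and 2.93 (2.64 to 3.26). The germ-cell-like level lay within 137 to 152 CPM up to E13.5 and was 1.73-fold (1.61 to 1.87) lower at E14.5 than at E13.5. In the 18 germ-cell-like cells of E10.5, 15 cells carried 31 Dnmt1 UMIs. The gene spans chr9:20907209-20959888 on the minus strand (GRCm38), and counts at the 3′ end do not tell the somatic from the oocyte transcript start.

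Uhrf1, the partner that guides DNMT1, did not follow Dnmt1 in germ cells. At E11.5 the 311 germ-cell-like cells held 59 Uhrf1 UMIs, in 50 cells, against 1395 UMIs in 728 of 2088 gonadal somatic cells. The levels in germ-cell-like cells were 8.98, 17.8, 43.8 and 39.6 CPM over E11.5 to E14.5, against 48.3, 40.2, 30.7 and 36.9 CPM in gonadal somatic cells. Uhrf1 was thus 5.38-fold (4.14 to 7.10) lower in germ-cell-like cells at E11.5 and 2.26-fold (1.93 to 2.66) lower at E12.5, while the ratio was 1.43 (1.29 to 1.58) at E13.5 and 1.07 (0.953 to 1.21) at E14.5. The E12.5 difference was -0.96 on the log2 scale at a clustering resolution of 2 and -0.89 with means over cells, under 2-fold. None of the 18 germ-cell-like cells of E10.5 had a Uhrf1 UMI. A count of 3 UMIs there would be 13.8 CPM, 6.68-fold under the 92.0 CPM of gonadal somatic cells. Uhrf1 spans chr17:56303321-56323486 on the plus strand.

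The gap between the 2 genes shows when Uhrf1 is counted per 100 Dnmt1 UMIs in the same cells. This ratio was 6.56 (4.95 to 8.55), 11.7 (10.0 to 13.7), 31.3 (29.0 to 33.8) and 49.1 (43.7 to 55.1) in germ-cell-like cells from E11.5 to E14.5, against 111, 93.0, 104 and 134 in gonadal somatic cells. Over the pooled classes, the germ-cell-like value was higher at each later stage and below the gonadal somatic value at every stage, with no overlap of the intervals. Their parts overlapped at E14.5. Germ-cell-like clusters ran from 30.5 to 131, with 80.4 (65.1 to 99.2) in 379 cells. Gonadal somatic classes ran from 79.5 (61.0 to 104) in supporting-lineage-like cells to 183. From E13.5 to E14.5 germ-cell-like Uhrf1 was not higher (43.8 and 39.6 CPM), while Dnmt1 was lower (140 and 80.6 CPM). Among all 12 named classes of E10.5, the gonadal somatic value was 115 and the others with at least 50 cells ran from 109 in lateral-plate-or-limb-mesoderm-like cells to 195 in erythroid-like cells. The Induced gonadal somatic cells had 93.3 (85.8 to 101), against 93.0 (85.0 to 102) at E12.5.

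**Figure D1:**
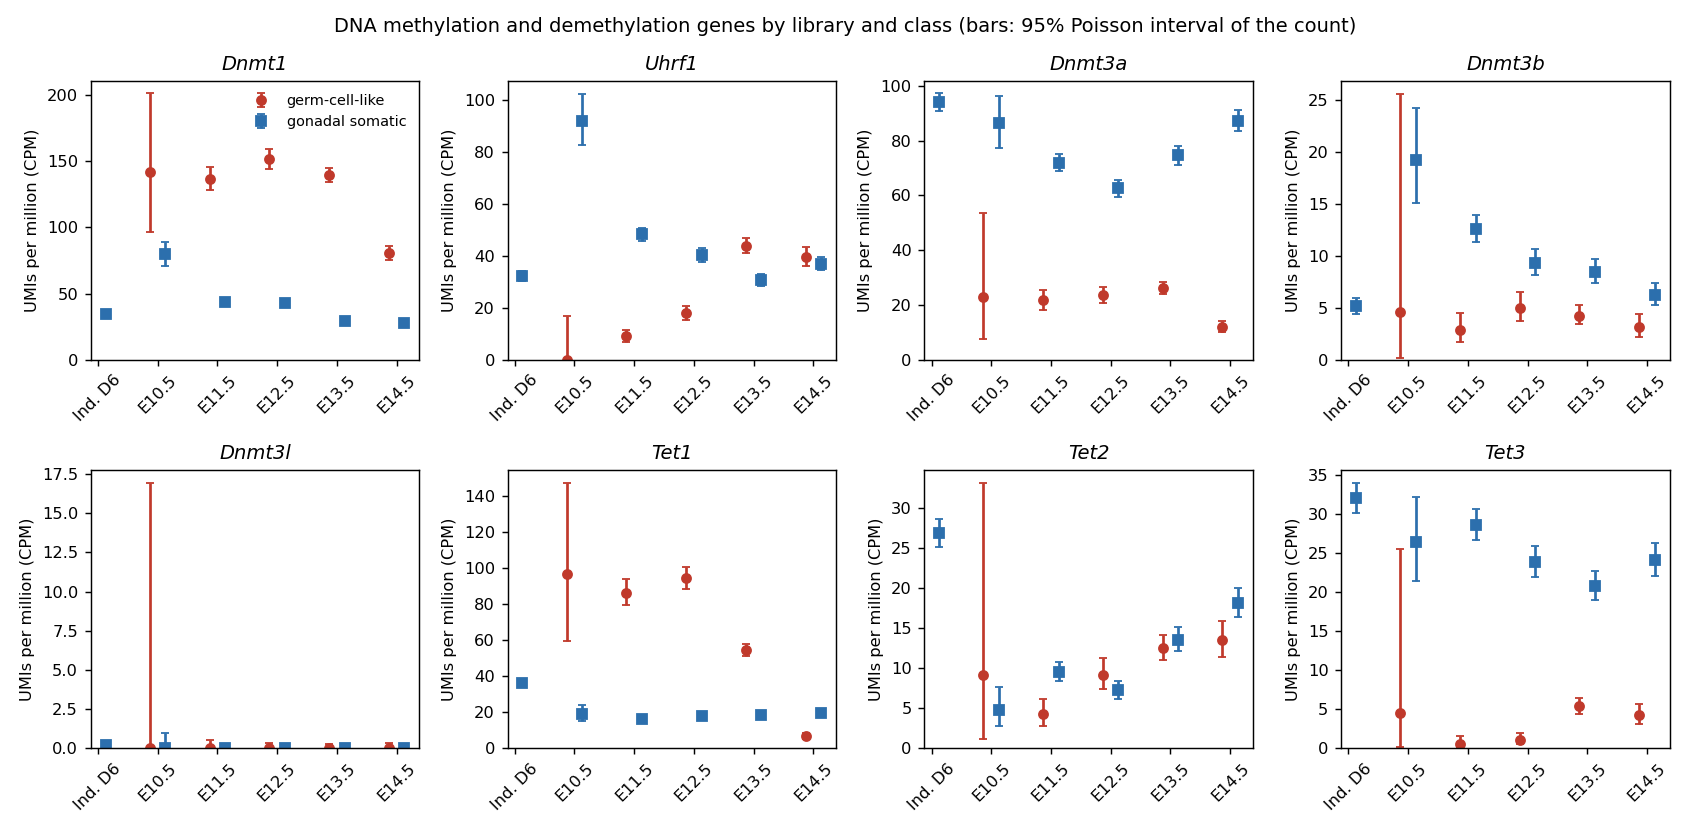
Level of each of the 8 genes (CPM, linear axis from 0) in germ-cell-like cells (circles) and gonadal somatic cells (squares) of each library, Induced D6 first and then E10.5 to E14.5. Bars are 95% Poisson intervals of the UMI count, and the Induced library has no germ-cell-like class. Dnmt1 and Tet1 circles lie above the squares up to E13.5, Dnmt3a and Tet3 circles below them, and Tet1 drops to 6.70 CPM at E14.5.

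**Figure D2:**
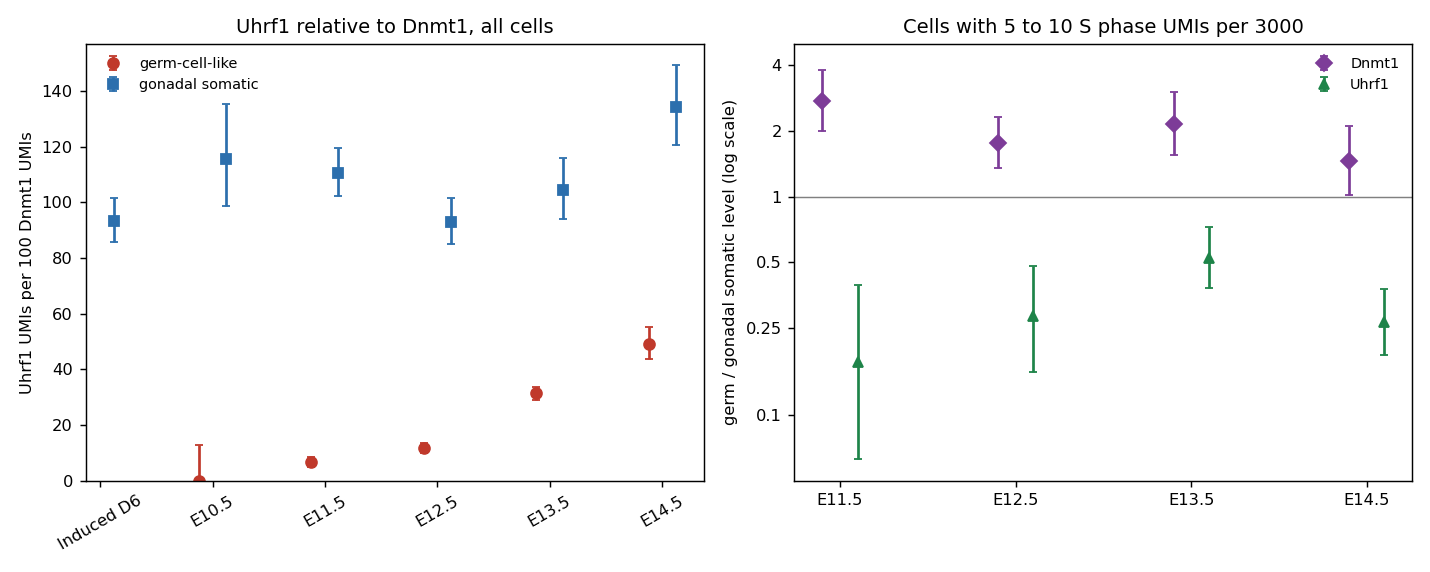
Left, Uhrf1 UMIs per 100 Dnmt1 UMIs in germ-cell-like (circles) and gonadal somatic cells (squares), with 95% intervals. Right, ratio of germ-cell-like to gonadal somatic level of Dnmt1 (diamonds) and Uhrf1 (triangles) among cells with 5 to 10 S phase UMIs per 3000 UMIs, on a log axis with 95% intervals. Dnmt1 lies above 1 and Uhrf1 below 1 at all 4 stages.

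Over gonadal somatic cells as a whole, Dnmt1 and Uhrf1 were higher in cells with more S phase RNA. Cells were thinned to 3000 UMIs and ranked by the summed UMIs of 22 S phase genes, none of them among the 8, and the highest 25% were set against the lowest 25%. These are ranges of a score and not cell types, and at the low scores of E13.5 and E14.5 ties make the sets uneven (682 and 1359 cells at E13.5). In gonadal somatic cells the highest-scoring set had Uhrf1 at 91.1, 59.0, 56.7 and 59.0 CPM over E11.5 to E14.5 and the lowest 18.5, 17.0, 16.2 and 17.4 CPM. The ratios ran from 3.39 (2.36 to 5.00) at E14.5 to 4.91 (3.50 to 7.03) at E11.5. It was 7.65 (5.59 to 10.7) in the Induced library and 2.00 (1.21 to 3.41) at E10.5. Dnmt1 had ratios of 2.03 to 2.97 from E11.5 to E14.5, 3.67 (2.88 to 4.72) in the Induced library and 1.38 (0.815 to 2.36) at E10.5. Tet1 had ratios of 0.837 to 1.26 in gonadal somatic cells over all 6 libraries, each with an interval that includes 1. Among the other genes, only Dnmt3a had intervals that exclude 1, with 0.777 (0.604 to 0.998) at E12.5 and 0.799 (0.697 to 0.916) in the Induced library.

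The pooled class mixes cells that differ in both measures, so the same split was made within 2 of its classes. In stroma-like cells the Dnmt1 ratios were 2.96, 4.53, 3.62 and 2.22 over E11.5 to E14.5, and the lowest interval began at 1.46. In supporting-lineage-like cells they were 1.30, 1.40, 1.27 and 0.820, and every interval includes 1. The highest and lowest sets of supporting-lineage-like cells lay close in score, with at least 3 against at most 1 S phase UMI at E11.5 and E12.5 and at least 2 against 0 at the later stages. In stroma-like cells they were at least 8 against at most 2 at E11.5, and at least 3 or 4 against at most 1 at the later stages. The Induced Dnmt1 ratios were 4.19 (2.96 to 6.06) in stroma-like and 1.08 (0.522 to 2.18) in supporting-lineage-like cells. The difference between the classes was not tested. Uhrf1 had ratios of 3.02 to 4.82 in stroma-like cells at these stages. In supporting-lineage-like cells its ratio was 4.67 (1.75 to 15.7) for E11.5 and 2.38 (1.33 to 4.39) for E12.5. The intervals for E13.5 (ratio 0.964, 0.514 to 1.83) and E14.5 (ratio 1.68, 0.786 to 3.70) include 1. How far the pooled ratios rest on the mix of classes was not tested.

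In germ-cell-like cells the same split was made at other scores, since their lowest set reached up to 6 S phase UMIs at E11.5 and E12.5, at or above the 6 and 4 UMIs where the highest gonadal somatic set began. Dnmt1 had 130, 182, 130 and 102 CPM in the highest-scoring set over E11.5 to E14.5, against 129, 147, 124 and 69.4 CPM in the lowest. Only the E14.5 ratio of 1.47 (1.09 to 1.98) had an interval above 1. Uhrf1 had ratios of 0.969 (0.393 to 2.34), 1.44 (0.979 to 2.11) and 1.204 (0.755 to 1.92) for E12.5, E13.5 and E14.5, given in that order. At E11.5 the highest-scoring set of 95 germ-cell-like cells had 0 Uhrf1 UMIs, and the lowest set of 103 cells had 4.

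**Figure D3:**
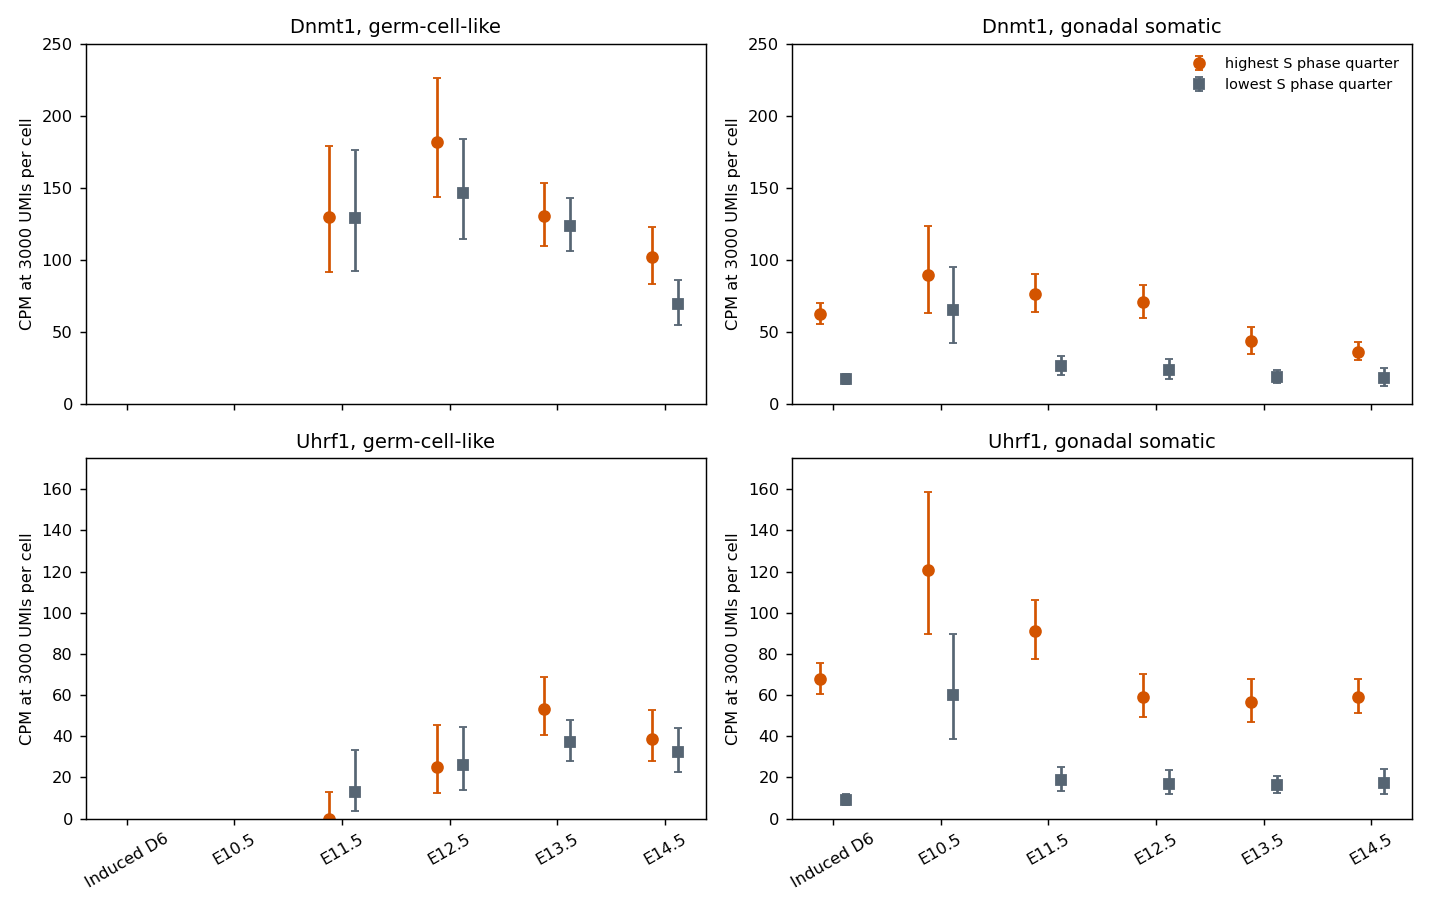
Dnmt1 (top) and Uhrf1 (bottom) in the highest (circles) and lowest (squares) 25% of cells by S phase score, for germ-cell-like (left) and gonadal somatic cells (right), in CPM after thinning to 3000 UMIs per cell, with 95% Poisson intervals. The 2 sets separate in gonadal somatic cells from E11.5 on and in the Induced library, and their intervals overlap in germ-cell-like cells at each stage.

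Germ-cell-like cells had more S phase UMIs than gonadal somatic cells, with medians of 8, 8, 5 and 4 per 3000 UMIs from E11.5 to E14.5, against 3, 2, 1 and 1. Both classes were therefore also compared among cells with 5 to 10 S phase UMIs, a range chosen after the data were seen. It held 188, 337, 754 and 479 germ-cell-like cells, with median scores of 7, 8, 7 and 6. Of the gonadal somatic cells it held 563, 444, 229 and 217, with a median of 6 at each stage. Those of E13.5 and E14.5 were a small, high-scoring part of 2598 and 2641 thinned cells. The mix of gonadal somatic classes was not matched. Uhrf1 was lower in germ-cell-like cells at all 4 stages in this range, at 10.6, 16.8, 49.5 and 39.0 CPM, against 61.0, 59.3, 94.6 and 146 CPM in gonadal somatic cells. These are 5.73-fold (2.55 to 16.0), 3.53-fold (2.07 to 6.36), 1.91-fold (1.39 to 2.62) and 3.74-fold (2.66 to 5.31) lower levels. Dnmt1 remained higher in germ-cell-like cells, with ratios of 2.75 (1.99 to 3.78), 1.76 (1.35 to 2.31), 2.14 (1.56 to 3.01) and 1.45 (1.01 to 2.11). In the matched range Uhrf1 was thus lower in germ-cell-like cells also at E13.5 and E14.5, where it was not over all cells, and the Dnmt1 ratio was under 2 at E12.5 and E14.5.

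Dnmt3a, a de novo methyltransferase, was lower in germ-cell-like cells at each stage. It had 21.6, 23.5, 26.2 and 11.96 CPM in germ-cell-like cells from E11.5 to E14.5, against 71.9, 62.5, 74.7 and 87.3 CPM in gonadal somatic cells. The level was 3.33-fold (2.81 to 3.97), 2.66-fold (2.32 to 3.07), 2.85-fold (2.59 to 3.15) and 7.30-fold (6.12 to 8.78) lower. With germ cells taken by a gate on 3 germ markers per cell in place of clusters, the E13.5 and E14.5 differences were -0.82 and -0.92 on the log2 scale, under 2-fold. Dnmt3a spans chr12:3806007-3914443 on the plus strand. Its antisense gene Dnmt3aos had at most 4 UMIs per library, and where counts are taken without strand the 2 cannot be told apart.

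Dnmt3b, the other de novo enzyme, was low in both classes. Its levels were 2.89, 4.99, 4.25 and 3.17 CPM in germ-cell-like cells from E11.5 to E14.5 and 12.6, 9.30, 8.47 and 6.24 CPM in gonadal somatic cells. In gonadal somatic cells the level was lower at each later stage, from 19.2 CPM at E10.5 on, and was 2.02-fold (1.65 to 2.48) lower at E14.5 than at E11.5. Among classes of at least 50 cells its 4 highest levels were 34.7 CPM (23.4 to 49.6) in leukocyte-like cells of E11.5 and 30.2, 26.3 and 24.7 CPM in endothelium-like cells of E12.5, E13.5 and E11.5, with overlapping intervals. The 41 leukocyte-like cells of E10.5 had 37 Dnmt3b UMIs, or 73.3 CPM. Dnmt3b lies at chr2:153649450-153687730 on the plus strand, and its rodent paralog Dnmt3c had 0 UMIs in every library, and how reads shared by the 2 genes were counted is not given in the sources used here.

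Dnmt3l, the cofactor without catalytic activity, was near absent in all classes. E10.5 had 9 UMIs in 9 cells, all of them paraxial-or-myogenic-mesoderm-like. The libraries of E11.5, E12.5 and E13.5 had 1 UMI each and that of E14.5 had 0. In germ-cell-like cells, 1 Dnmt3l UMI was found, at E13.5. The Induced library had 21 UMIs in 11 of 7064 cells, 11 of them in 1 cell. Dnmt3l lies at chr10:78041947-78063622 on the plus strand, inside a region where the gene Aire on the opposite strand had 1 to 144 UMIs per library.

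Tet1, the first of the dioxygenases, was high in germ-cell-like cells until E12.5 and low at E14.5. It had 86.3, 94.3, 54.6 and 6.70 CPM in germ-cell-like cells from E11.5 to E14.5, against 16.5, 17.9, 18.5 and 19.4 CPM in gonadal somatic cells. The ratios were 5.22 (4.61 to 5.90), 5.27 (4.70 to 5.93) and 2.95 (2.64 to 3.31) at E11.5 to E13.5, and at E14.5 Tet1 was 2.89-fold (2.25 to 3.75) lower in germ-cell-like cells. With clusters at a resolution of 0.5, which named only 559 germ-cell-like cells at E13.5, the E13.5 ratio was 0.39 on the log2 scale. With the gate on germ markers the E14.5 difference was -0.84 on that scale. Tet1 lies at chr10:62804570-62908996 on the minus strand.

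Tet2 had no constant order between the classes. Its levels were 4.26, 9.19, 12.46 and 13.498 CPM in germ-cell-like cells from E11.5 to E14.5, against 9.55, 7.23, 13.53 and 18.2 CPM in gonadal somatic cells. The germ-cell-like level was 3.17-fold (2.10 to 4.93) higher at E14.5 than at E11.5, and the gonadal somatic level 1.90-fold (1.63 to 2.23) higher. Tet2 lies at chr3:133463679-133545139 on the minus strand, where the antisense gene Gm42567 had 0 to 59 UMIs per library, the most at E14.5. Only if counts were taken without strand could the 2 genes not be told apart.

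Tet3, the form known for its work in the zygote, was close to 0 in early germ-cell-like cells. It had 4 UMIs in 311 germ-cell-like cells of E11.5 and 11 UMIs in 581 cells of E12.5, against 827 and 565 UMIs in gonadal somatic cells. That is 0.609, 1.08, 5.39 and 4.26 CPM in germ-cell-like cells from E11.5 to E14.5, against 28.6, 23.9, 20.8 and 24.2 CPM in gonadal somatic cells. The levels were 47.0-fold (18.3 to 173), 22.2-fold (12.3 to 44.7), 3.86-fold (3.13 to 4.80) and 5.68-fold (4.21 to 7.83) lower. Germ-cell-like cells of E11.5 and E12.5 held the lowest Tet3 levels of all 36 classes with at least 50 cells, and endothelium-like cells of E12.5 the highest, with 49.0 CPM (37.4 to 63.1). With the gate on germ markers the E13.5 difference was -0.83 on the log2 scale. Tet3 lies at chr6:83362373-83459084 on the minus strand.

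After thinning to 3000 UMIs per cell, which removes the greater depth of germ-cell-like cells, the shares of cells with a UMI kept these orders. Dnmt1 was seen in 32.4%, 34.2%, 33.3% and 21.7% of germ-cell-like cells from E11.5 to E14.5, against 11.3%, 11.6%, 7.27% and 7.46% of gonadal somatic cells. Tet1 was seen in 25.8%, 23.7%, 12.9% and 2.01% of germ-cell-like cells, against 5.66%, 5.45%, 5.27% and 5.60% of gonadal somatic cells. Without thinning, Dnmt1 was seen in 87.8% and Tet1 in 75.2% of germ-cell-like cells of E11.5, against 37.4% and 19.7% of gonadal somatic cells. Erythroid-like cells, a class in which UMIs of these genes may come from free RNA, gave 5.19% for Dnmt1 and 1.30% for Tet1 at E11.5 (77 cells). Tet3 was seen in 0 of 299 thinned germ-cell-like cells of E11.5, which allows a share of cells with a UMI at this depth of up to 1.003%, and in 8.85% of gonadal somatic cells. Without thinning the shares were 1.29% and 30.4%.

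Across all genes, a ratio of at least 2 among genes with at least 10 CPM in either class was used as a mark of size. At E11.5, 6 of the 8 genes passed this level and all 6 differed by this much (45.5% of the 8839 genes at that level did), Tet1 and Dnmt1 being higher and Uhrf1, Dnmt3a, Dnmt3b and Tet3 lower in germ-cell-like cells. At E12.5, 5 genes passed and all 5 differed (46.4% of 8682 genes), in the same directions. At E13.5, 4 of the 6 that passed differed (51.7% of 9234 genes), with Dnmt1 and Tet1 higher and Dnmt3a and Tet3 lower. At E14.5, 4 of the 6 that passed differed (61.0% of 9332 genes), with Dnmt1 higher and Dnmt3a, Tet1 and Tet3 lower. Differences of this size were thus common among all genes, and the counts of E13.5 and E14.5 are near the share over all genes. The median log2 ratio of all genes was -0.13, 0.00, 0.34 and 0.13 from E11.5 to E14.5. With ratios taken from that median, the higher calls of all genes made up 44.3% at E13.5, against 58.0% before.

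**Figure D4:**
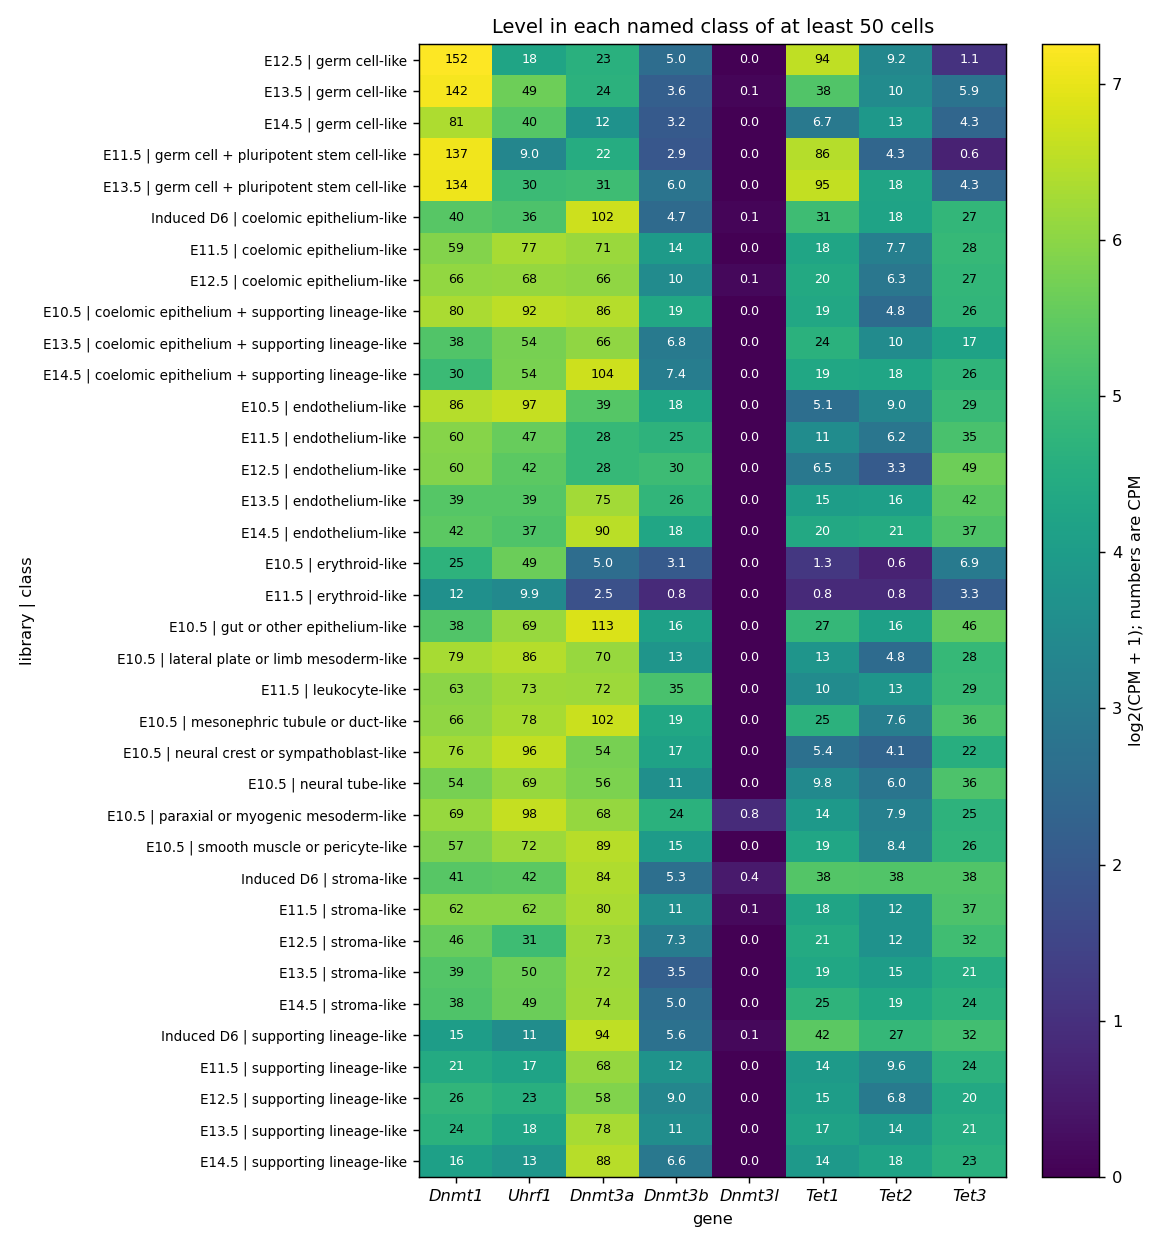
Level of the 8 genes in each named class of at least 50 cells, 36 in all, with germ-cell-like classes at the top. Colour is log2(CPM + 1) and the number in each field is the CPM. Germ-cell-like rows are bright for Dnmt1 and, up to E13.5, Tet1, and dark for Tet3, while the Dnmt3l column is at most 0.848 CPM.

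Within the germ-cell-like cells of E12.5, E13.5 and E14.5, Tet1 was lower in clusters with more RNA of meiosis genes. Clusters are described here by the summed level of 14 meiosis genes, and the 8 genes had no part in the clustering. At E13.5 the clusters with at least 50 cells, ordered by 874, 1868, 3387 and 5600 CPM of meiosis genes, had Tet1 at 94.99 (87.3 to 103), 52.9 (47.7 to 58.5), 26.1 (21.7 to 31.1) and 18.6 (13.47 to 25.1) CPM. At E12.5 the cluster with 1693 CPM of meiosis genes had Tet1 at 53.7 CPM (39.6 to 71.2), against 88.4 and 115.6 CPM in the clusters with 520.0 and 457 CPM. Across stages the order did not hold, since the E11.5 cluster of 292 cells, with 170 CPM of meiosis genes, had Tet1 at 86.1 CPM (79.1 to 93.5). The E14.5 cluster with the least meiosis RNA, 3695 CPM, had Tet1 at 21.3 CPM (15.7 to 28.3), and those with 7425 and 8721 CPM had 4.16 and 2.04 CPM. A further E14.5 cluster of 120 cells had 0 Tet1 UMIs, at a median of only 2306 UMIs per cell.

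Dnmt1 kept to 134 to 156 CPM in every cluster of at least 50 cells up to E13.5, also in the E13.5 cluster with 5600 CPM of meiosis genes (154 CPM). It was 136 CPM in the least meiotic E14.5 cluster and 81.9, 52.1 and 37.0 CPM in the other 3. Uhrf1 was not level up to E13.5, with 8.95 CPM at E11.5 and 11.3 to 36.9 CPM over the E12.5 clusters. At E13.5 it was 61.6 CPM (54.8 to 69.0) in the cluster with 3387 CPM of meiosis genes and 45.4 CPM in that with 5600 CPM. The E14.5 clusters ran from 24.96 to 64.4 CPM of Uhrf1, the highest being the least meiotic cluster. Dnmt3a had 11.3 CPM in the most meiotic E13.5 cluster and 24.4 to 30.8 CPM in the other 3 large ones.

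**Figure D5:**
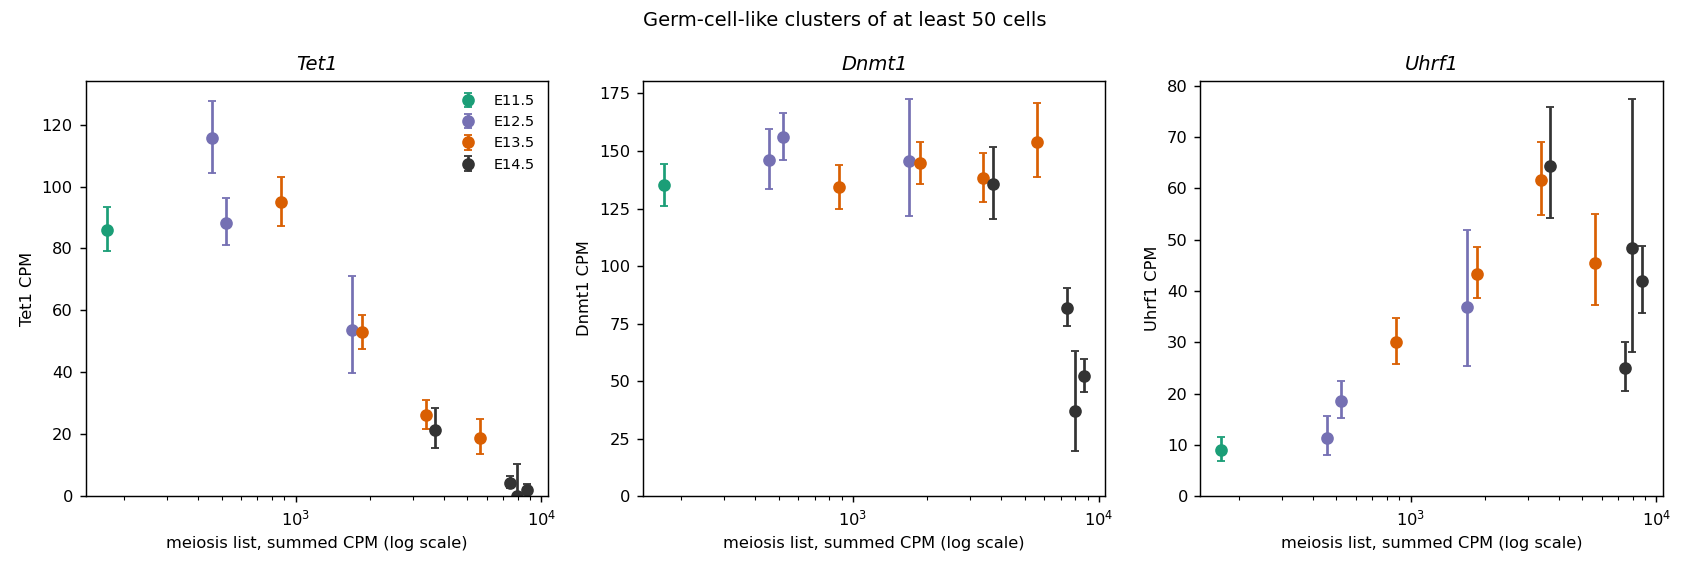
Tet1, Dnmt1 and Uhrf1 (CPM, 95% Poisson intervals) in each germ-cell-like cluster of at least 50 cells, against the summed CPM of 14 meiosis genes on a log axis, coloured by stage. Within E12.5 and within E13.5 Tet1 is lower at higher meiosis levels, and at E14.5 it is highest in the least meiotic cluster. The E11.5 cluster does not extend this order. Dnmt1 is level up to E13.5, and Uhrf1 is lowest at E11.5.

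Set over the whole interval, germ-cell-like cells of E14.5 had Tet1 12.9-fold (10.1 to 16.6) lower than those of E11.5 and Uhrf1 4.41-fold (3.35 to 5.89) higher. Tet3 had 47 UMIs in germ-cell-like cells of E14.5 and 4 at E11.5, a ratio of 6.99 (2.56 to 26.7) at under 5 CPM. Dnmt1 was 1.70-fold lower and Dnmt3a 1.81-fold (1.42 to 2.31) lower. Of the 5 genes that passed the level, 3 differed at least 2-fold (55.1% of 8352 genes did), Uhrf1 and Tet2 being higher and Tet1 lower. The steps were unequal. Tet1 was 8.15-fold (6.44 to 10.46) lower at E14.5 than at E13.5 and 1.73-fold (1.58 to 1.88) lower at E13.5 than at E12.5. Uhrf1 had step ratios of 1.98 (1.47 to 2.71) for E12.5 over E11.5, 2.46 (2.10 to 2.90) for E13.5 over E12.5 and 0.904 (0.804 to 1.01) for E14.5 over E13.5.

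The gonadal somatic cells changed less. Between E14.5 and E11.5, Dnmt3b was the only 1 of 7 genes past the level to differ 2-fold, being lower (18.4% of 8598 genes differed). Dnmt1 was 27.5 CPM at E14.5 and 43.7 CPM at E11.5, a ratio of 0.629. The median log2 ratio of all genes was -0.20, and with ratios from that median the Dnmt3b difference was -0.81, under 2-fold. Higher calls of all genes then made up 53.0%, against 31.6% before. Of the 21 S phase genes past the level, 18 were at least 2-fold lower at E14.5. Their part in the Dnmt1 difference was not tested. Between supporting-lineage-like cells alone, Dnmt1 was 16.3 CPM at E14.5 and 20.8 CPM at E11.5. Between stroma-like cells it was 37.5 and 62.2 CPM. The 462 cells of E14.5 with markers of both coelomic epithelium and supporting lineage had Dnmt1 at 29.6 CPM and Uhrf1 at 54.2 CPM, and the 1188 supporting-lineage-like cells of E14.5 had 16.3 and 12.99 CPM. The E10.5 cluster, with markers of both kinds, had 79.7 and 92.0 CPM, so the size of the difference depends on which E14.5 cells are compared. Tet2 was 3.70-fold (2.30 to 6.35) higher in the E14.5 cells of both kinds together than in the E10.5 cluster (17.8 and 4.81 CPM).

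Within the gonadal somatic classes, supporting-lineage-like cells had the lowest Dnmt1 and Uhrf1. At E12.5 they had Dnmt1 at 26.3 CPM, against 66.2 CPM in coelomic-epithelium-like and 46.2 CPM in stroma-like cells, and Uhrf1 at 22.7, against 67.9 and 30.9 CPM. Dnmt3a varied less, with 57.7, 65.8 and 73.5 CPM. An unnamed E12.5 cluster of 174 cells with 15 of 17 stroma markers lay outside these classes. It had Dnmt1 at 95.4 and Uhrf1 at 96.4 CPM, so the stroma-like values leave out these cells.

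Among the Induced cells, Tet2 was higher than in gonadal somatic cells of E12.5, the stage at which its level there was lowest among E11.5 to E14.5. Gonadal somatic cells of the Induced library had Tet2 at 26.8 CPM, against 7.23 CPM at E12.5, a ratio of 3.71 (3.15 to 4.39). The ratio was 4.02 (3.11 to 5.24) in supporting-lineage-like, 2.77 (2.06 to 3.78) in coelomic-epithelium-like and 3.15 (2.21 to 4.64) in stroma-like cells. The ratio was 2.81 against E11.5, 1.98 against E13.5 and 1.47 (1.31 to 1.67) against E14.5, so that it was smallest against the latest stage. By class the Induced level was not above each gonadal one, with 17.5 CPM in Induced coelomic-epithelium-like cells, against 18.2 CPM in the E14.5 class with coelomic epithelium and supporting lineage markers. Tet1 had 36.1 CPM in Induced and 17.9 CPM in E12.5 cells, a ratio of 2.02 (1.80 to 2.26), which was 2.71 (2.26 to 3.26) in supporting-lineage-like and 1.51 (1.27 to 1.81) in coelomic-epithelium-like cells.

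Of 6 genes past the level, Tet2 and Tet1 differed at least 2-fold (16.8% of 8535 genes did), both being higher in Induced cells. The median log2 ratio of all genes was 0.26, and from that median Tet2 was at 1.63 and Tet1 at 0.76, under 2-fold. With clusters at resolutions of 0.5 and 2 and with means over cells, Tet1 was at 0.94, 0.90 and 0.99. With ratios from the median, higher calls of all genes made up 57.1%, against 77.4% before. Dnmt3a was 93.9 CPM in Induced and 62.5 CPM in E12.5 cells (ratio 1.502, 1.41 to 1.60), and Tet3 32.1 and 23.9 CPM. Dnmt1 and Uhrf1 were 34.3 and 32.0 CPM in Induced cells, against 43.2 and 40.2 CPM at E12.5. The Uhrf1 ratio differed by class, with 0.471 (0.365 to 0.602) in supporting-lineage-like, 0.536 (0.475 to 0.604) in coelomic-epithelium-like and 1.35 (1.07 to 1.72) in stroma-like cells. The difference between these ratios was not tested. The stroma-like classes were not alike in make-up. That of E12.5 left out the unnamed cluster of 174 cells with 15 of 17 stroma markers and Uhrf1 at 96.4 CPM. The Induced class kept a cluster of 498 cells with Uhrf1 at 98.4 CPM. The part of this in the stroma-like ratio was not tested.

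The other genes of the pathway were counted by list. Of 14 cofactors and chromatin partners past the level at E11.5, 3 were at least 2-fold higher in germ-cell-like cells and 3 lower, where 45.5% of all genes differed, with a median log2 ratio of 0.55 (all genes -0.13). At E14.5 these were 4 and 2 of 13, where 61.0% of all genes differed, with a median of 0.72 (all genes 0.13). Hells, a chromatin remodeller needed for DNA methylation, had 491, 968, 1040 and 1201 CPM in germ-cell-like cells from E11.5 to E14.5, against 85.0, 88.2, 57.9 and 62.2 CPM in gonadal somatic cells. Its ratio was thus 5.78 (5.48 to 6.09) at E11.5 and 19.3 (18.2 to 20.4) at E14.5. Zfp57, a zinc finger protein that keeps methylation at imprinted regions, was lower in germ-cell-like cells, with 1.22 to 1.43 CPM, against 16.3 to 26.5 CPM in gonadal somatic cells. Prdm14, a germ cell regulator known to repress Dnmt3b in mouse ES cells, had 15.5 CPM in germ-cell-like cells of E11.5, 0 UMIs in gonadal somatic cells and 1 UMI in germ-cell-like cells of E14.5. Setdb1, a histone H3 lysine 9 methyltransferase, was 172 CPM in germ-cell-like cells of E14.5 and 21.9 CPM in gonadal somatic cells.

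Among TET partners and base excision repair genes, 3 of 12 past the level were higher and 2 lower in germ-cell-like cells of E11.5, and 1 was higher and 6 lower at E14.5. These counts are near the shares over all genes (45.5% and 61.0%), and the median log2 ratio at E14.5 was -0.95 (all genes 0.13). Ung, the uracil glycosylase, had 247 CPM in germ-cell-like cells of E11.5 and 55.7 CPM in gonadal somatic cells, and was 9.14-fold lower in germ-cell-like cells of E14.5 (27.0 CPM). Parp1, a strand break sensor, was 5.06-fold and Apex1, the abasic site endonuclease, 9.09-fold lower over the same interval. Gadd45g, of a family linked to DNA demethylation, was 140-fold (80.0 to 271) lower in germ-cell-like than in gonadal somatic cells at E11.5, at 1.83 and 256 CPM. In the Induced library Cxxc5, which can bind TET2, was 3.01-fold (2.78 to 3.25) and Gadd45b 2.97-fold higher than at E12.5.

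Genes that supply S-adenosylmethionine, the methyl donor, had 2 of 8 higher and 0 lower in germ-cell-like cells of E11.5, namely Shmt1 (133 and 30.9 CPM) and Mthfd1 (46.9 and 23.0 CPM), both enzymes of the folate cycle. Over all genes 45.5% differed. In germ-cell-like cells of E14.5 Shmt1 was 16.3-fold and Mthfd1 12.9-fold lower than at E11.5. Of the methyl-CpG readers, 0 of 6 past the level differed 2-fold at E11.5. Mbd4, a reader that is also a glycosylase, had 13.9 CPM in germ-cell-like cells of E14.5, against 4.04 CPM in gonadal somatic cells.

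Germline genes known to be silenced by promoter methylation in somatic cells were listed for being silent in somatic cells, so they are given as values with no count. Hormad1, a protein of the meiotic chromosome axis, had 322 CPM in germ-cell-like cells of E14.5, against 5.28 CPM in gonadal somatic cells. Sycp1, of the synaptonemal complex, had 1193 CPM in germ-cell-like cells of E14.5, against 15.6 CPM in gonadal somatic cells. The part of free germ cell RNA in these somatic values was not tested, and the summed germ markers stood at 1.97% of the germ-cell-like level there.

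As a description over the 36 classes with at least 50 cells, which share libraries, the genes with the most similar profiles were found by Pearson's r of log2(CPM + 10). For Dnmt1 these were Lsm2 (0.927), Atad2 (0.926) and Cenps (0.926), and for Uhrf1 H2afz (0.884), Pclaf (0.870) and Poc1b (0.836). Tet2 was most like Ip6k1 (0.899), Tet3 like Limd1 (0.936), Dnmt3a like Ip6k2 (0.920) and Dnmt3b like Pak2 (0.832). Between members, Dnmt3a and Tet3 had the highest r (0.730), followed by Dnmt3b and Tet3 (0.665), while Dnmt1 and Uhrf1 had 0.370.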

How the data were processed

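Libraries were made with the 10x Chromium 3′ version 2 kit, per the labels' protocols. The authors deposited UMI counts per gene and cell barcode, from Cell Ranger 3.0.2 with mm10, per the submitters' processing notes; 3′ counts do not tell isoforms apart. Barcodes under 500 genes or over 10% mitochondrial UMIs were dropped, and the highest Scrublet scores were removed, 0.8% per 1000 barcodes. Each library was clustered (scanpy 1.11.5, 2000 variable genes without the 8 members, 30 principal components, Leiden resolution 1) and clusters were named from 17 marker sets. CPM came from UMI sums per class. Intervals are exact (Poisson for a level, conditional binomial for a ratio, Clopper-Pearson for a share) and cover counting error only. A count of 0 was bounded by 3 UMIs, or 3 cells for a share, per class. Ratio intervals were tested on simulated data. Named genes of a list are those with the largest ratios, at most 3 per comparison, and the 3 nearest profiles per member. Members and lists were chosen with earlier results of these data known. Coordinates are GENCODE vM21, start site windows RefSeq. Some list members and nearest profiles are not reported here.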

Additional observations from a re-analysis of the deposited data

Results flagged for a closer look

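Between E14.5 and E11.5, Uhrf1, Dnmt3a, Tet1 and Tet3 went one way in germ-cell-like cells and the other way in gonadal somatic cells. How many of all genes did so was not counted. With 1 library a stage these differences were not tested, and the gonadal somatic direction did not hold in each of its classes. On the log2 scale Dnmt3a was -0.10 in stroma-like cells, and Tet1 was -0.07 and Tet3 -0.08 in supporting-lineage-like cells. Each of these has an interval that includes 0. The median log2 ratio of all genes in gonadal somatic cells was -0.20, close to the Tet3 value of -0.24 there. As log2 ratios of E14.5 over E11.5, Uhrf1 was 2.14 in germ-cell-like and -0.39 in gonadal somatic cells, Dnmt3a -0.854 and 0.28, Tet1 -3.69 and 0.23, and Tet3 2.81 and -0.24. Dnmt3b was 0.133 and -1.01, and its germ-cell-like interval (-0.71 to 1.02) includes 0.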

How the results depend on the processing

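No paired analysis was possible because each group is 1 library and the labels give no replicate numbers. The number of genes differing 2-fold stayed within 1.5 times under 8 alternatives (stricter cell filters, doublets kept, resolutions 0.5 and 2, the germ gate, means over cells, ratios from the median, shared barcodes left out). It moved only with the level. For germ against gonadal somatic cells at E11.5, E12.5, E13.5 and E14.5 it was 4019, 4026, 4773 and 5694, but 1486, 1434, 1821 and 2373 at 50 CPM and 11048, 10648, 11846 and 12483 with no level. For E14.5 against E11.5 it was 4599 in germ-cell-like cells (2021 and 10806) and 1582 in gonadal somatic cells (650 and 6955), and for Induced against E12.5 it was 1436 (527 and 6871). Of 28 member ratios of at least 2-fold, 16 stayed so in each alternative. The 28 include genes under 10 CPM in both classes. Among the 16 are Dnmt3l in Induced against E12.5 cells, from 7 and 1 UMIs (ratio 4.94, 0.635 to 223). Tet3 in germ-cell-like cells of E14.5 against E11.5, from 47 and 4 UMIs, is another. Besides those given above, Tet2 at E11.5 was -0.76 with the gate, Uhrf1 at E12.5 -0.96 at resolution 2 and -0.89 with means over cells, Dnmt3b -0.74 at E11.5 among cells with 5 to 10 S phase UMIs, and Dnmt3b in somatic cells -0.98 without shared barcodes. These last 2 settings were chosen after seeing the data. With G2/M genes in place of S phase genes, 3 ratios turned: Uhrf1 in E10.5 gonadal somatic cells (-0.18), Tet1 in E14.5 (-0.15) and Tet2 in E12.5 germ-cell-like cells (-0.42). The cause was not tested. Depth limits Dnmt3l, Tet3 in germ cells and all E10.5 germ values.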

Other observations

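At a clustering resolution of 2 the Induced library held a cluster of 39 cells named by germ cell and pluripotency markers, 38 of them from 1 unnamed cluster of the main clustering. They carried 13 of the 21 Dnmt3l UMIs, in 3 cells. Pou5f1, a pluripotency factor, had 460 CPM there and 1.03 CPM in the other 7025 cells, but only 8 of the 39 cells had a Pou5f1 UMI, and 5 had one of Nanog, another such factor, while Dazl had 1 UMI and Ddx4, an RNA helicase of germ cells, 0. Dnmt3b was 33.7 CPM (12.4 to 73.3) in the 39 cells and 5.17 CPM in the others, Dnmt1 78.6 and 30.2 CPM, and Tet1 78.6 and 35.6 CPM. In the 39 cells these rest on 6 Dnmt3b UMIs in 3 cells, 14 Dnmt1 UMIs in 11 cells and 14 Tet1 UMIs in 6 cells. The median depth of the 39 cells was 1862 UMIs, against 6195 UMIs in the others, and its part in these values was not tested.

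The 31 cells of 1 small germ-cell-like cluster at E13.5 had 5 Dnmt1 UMIs, or 23.0 CPM (7.48 to 53.8), against 134 to 154 CPM in the other 4 clusters of that stage. Their median depth was 6412 UMIs, against 11913 or more.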
